A study of Mus musculus with 9 samples.

Results

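The 7 genes described here, Mrgprd, Mrgpra3, Mrgprx1, Mrgprb4, Mrgprb5, Mrgpre and Mrgprf, encode Mas-related G protein-coupled receptors. They were found by matching the Ensembl gene identifiers of the deposited expression table to their symbols, and they are 7 of its 45904 identifiers. All 7 had a row, and all 7 passed the filter on low values, a mean of at least 0.2 FPKM (a count of sequenced fragments scaled by the gene's length and the library's depth) over the 9 libraries. The RNA came from whole dorsal root ganglia of the sciatic nerve, which hold the cell bodies of sensory neurons together with glia, vessels and immune cells. There were 3 groups of 3 libraries, each library from ganglia of 2 pooled C57BL/6 mice taken 24 h after surgery. The young sham group was 8 to 10 weeks old and had sham surgery. The aged sham group was 20 to 22 months old and had the same sham surgery. The aged injury group was also 20 to 22 months old and had a sciatic nerve injury. All 3 groups had therefore been operated on, and injury in young mice is not analysed here. Each p-value measures only the spread between pools of mice.

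Mas-related receptors are expressed mostly by small-diameter sensory neurons with unmyelinated axons, and several of them couple through Gq to phospholipase C. Different neurons carry different members, so the genes serve as labels of neuron classes as well as receptors. Mrgprd, which responds to beta-alanine, marks non-peptidergic nociceptors that end in the skin; Mrgpra3, which responds to chloroquine, and Mrgprx1, which responds to a fragment of proenkephalin, mark neurons that signal itch. Mrgprb4 marks fibres that respond to gentle stroking of the skin, and Mrgprb5 is its closest relative among these genes. Mrgpre and Mrgprf are orphan receptors. In whole ganglia, fewer cells of a class and less RNA per cell cannot be told apart.

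All 7 genes lie on chromosome 7 of the GRCm38 build, in 2 stretches. In GENCODE, Mrgpra3 is at chr7:47588950-47601372, Mrgprx1 at chr7:48020971-48027597, Mrgprb5 at chr7:48167983-48169019 and Mrgprb4 at chr7:48198070-48199288, all on the minus strand. Mrgpre, on the minus strand at chr7:143778363-143784500, Mrgprf, on the plus strand at chr7:145300828-145309557, and Mrgprd, on the plus strand at chr7:145314835-145324086, lie far from these. Mrgprb5 and Mrgprb4 are annotated as single-exon genes 29.1 kb apart, and Mrgprf and Mrgprd are 5.3 kb apart. Over the coding sequence, Mrgprb4 and Mrgprb5 were 84.5% identical, the highest of the 21 pairs. The next pair, Mrgprx1 and Mrgprb4, was 63.6% identical, and the lowest was 50.5%.

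The stretches before the start of Mrgprb5 and Mrgprb4 are shown because these neighbours stood at opposite ends of the members' log2 changes after injury. They are from RefSeq, build GRCm38.p6, minus strand, and end at the base before the first annotated base of the gene, at chr7:48169020-48169235 for Mrgprb5 and chr7:48199289-48199428 for Mrgprb4. Capitals mark the bases that are identical between them in a local alignment, 110 of 137 aligned bases (80.3%).
Mrgprb5: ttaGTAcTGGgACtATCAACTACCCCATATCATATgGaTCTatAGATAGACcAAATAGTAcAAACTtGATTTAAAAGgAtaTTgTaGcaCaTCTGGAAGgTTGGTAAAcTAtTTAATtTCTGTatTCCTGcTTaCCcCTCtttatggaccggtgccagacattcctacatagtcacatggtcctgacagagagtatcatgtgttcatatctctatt
Mrgprb4: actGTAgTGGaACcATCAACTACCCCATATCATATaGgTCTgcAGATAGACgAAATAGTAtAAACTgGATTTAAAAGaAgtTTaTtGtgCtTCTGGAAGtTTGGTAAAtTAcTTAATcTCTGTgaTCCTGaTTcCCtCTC
The 250 bases before Mrgprx1, on the minus strand at chr7:48027598-48027847, are shown because this gene gave the clearest change. No base is in capitals, since the stretch aligned with that of Mrgprb4 over 46 bases only and with that of Mrgprb5 over 29.
Mrgprx1: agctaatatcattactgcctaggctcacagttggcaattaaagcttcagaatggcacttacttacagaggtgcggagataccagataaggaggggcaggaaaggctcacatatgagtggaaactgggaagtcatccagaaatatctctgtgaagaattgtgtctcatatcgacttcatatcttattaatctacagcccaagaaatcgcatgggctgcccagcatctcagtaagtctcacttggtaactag

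Promoter windows of 300 bases were held for 5 of the 7 genes, all but Mrgpra3 and Mrgprf. Neither strand of these 5 windows held TGTGGT, the core of a RUNX site, which 16.8% of 32851 mouse promoter windows held. TGACTCA, the site of AP-1 factors, was in none of the 5 and in 5.2% of all windows. The motif TATAAA was in the Mrgprb4 window only, against 13.6% of all windows. The GC content was 39.7% for Mrgprb5, 40.3% for Mrgprb4 and 42.3% for Mrgprx1, below the median of 52.7% over all windows, while Mrgprd (51.7%) and Mrgpre (56.7%) lay nearer to it.

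Since family members resemble each other, stretches they share were counted in their annotated transcripts. No window of 100 bases, the length of 1 sequenced read, was shared between any of the 7 genes and another gene of the family. Windows of 50 bases were shared in 7.1% of Mrgpra3, 2.9% of Mrgprx1, 1.5% of Mrgprb4 and 0.8% of Mrgprb5, and in none of Mrgprd, Mrgpre or Mrgprf. The longest run that Mrgprb5 and Mrgprb4 have in common is 57 bases, coding bases 861 to 917 of Mrgprb5 and 858 to 914 of Mrgprb4, shown because it is where their reads resemble each other most.
Mrgprb5 and Mrgprb4: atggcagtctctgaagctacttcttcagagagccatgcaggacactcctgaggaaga

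Relative depth, read from the FPKM worth of 1 read, ran from 0.846 to 1.23 times that of young sham 1, and 20237 to 21100 identifiers were above 0. The young sham libraries had the Y-linked gene Ddx3y at 13.8 to 15.7 FPKM, whereas aged sham 2 and 3 and the injury libraries had it at 0 to 0.0133 FPKM with Xist at 9.77 to 13.1 FPKM. Age and sex therefore cannot be told apart. Aged sham 1 had both Ddx3y (10.9 FPKM) and Xist (1.75 FPKM). It also stood apart in Atf3, a transcription factor induced by axon injury, at 95.6 FPKM, where aged sham 2 had 27.1, aged sham 3 had 27.3 and the injury libraries had 192 to 278 FPKM. Of 12 axon injury genes, 11 rose in aged injury against aged sham, while 2.45% of all genes did. Summed markers of other cell types differed between the groups: in young sham, aged sham and aged injury, those of Schwann cells were 3376 to 3823, 2513 to 2593 and 2191 to 2500 FPKM, and those of satellite glia 1542 to 1606, 1419 to 1578 and 1169 to 1315 FPKM. Lymphocyte markers were 13.7 to 15.8, 77.8 to 613 and 272 to 2321 FPKM, and skeletal muscle markers 39.0 to 356, 13.0 to 245 and 3.64 to 36.9 FPKM. Their part in the results was not tested.

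The order of the 7 genes by level was led by Mrgprd, at a mean of 53.8 FPKM over the 9 libraries. Mrgprx1 followed at 12.8 FPKM, then Mrgprb4 at 9.66, Mrgpra3 at 9.28, Mrgpre at 7.79, Mrgprb5 at 4.09 and Mrgprf at 1.95 FPKM. Mrgprd made up 52.0% to 57.0% of the summed FPKM of the 7 genes in each library and lay between the 91.8th and 94.4th percentile of the 17601 genes tested. Within groups, the ranges of Mrgprb4 and Mrgpra3 overlapped in all 3, so this pair was not separated beyond its spread. Mrgpra3 and Mrgpre overlapped in young sham and aged injury but not in aged sham. Mrgprx1 and Mrgprb4 overlapped in aged injury and in neither sham group. The FPKM worth of 1 Mrgprb4 read was 1.262 times what its annotated exonic length of 1219 bases gives, and that of the other 6 genes 0.997 to 1.009 times. A length of 966 bases, that of its coding sequence, would give this factor, so the deposited values may rest on the coding bases alone. Reads outside them would then not have been counted, and setting the same reads to the annotated length would understate Mrgprb4. Which bases were counted was not tested. At its annotated length, an alternative chosen after seeing the data, Mrgprb4 would average 7.66 FPKM and stand below Mrgpra3 and Mrgpre in the order. Mrgprx1 was above Mrgprb4 in 8 of 9 libraries as deposited and in 9 of 9 at the annotated length.

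**Figure D1:**
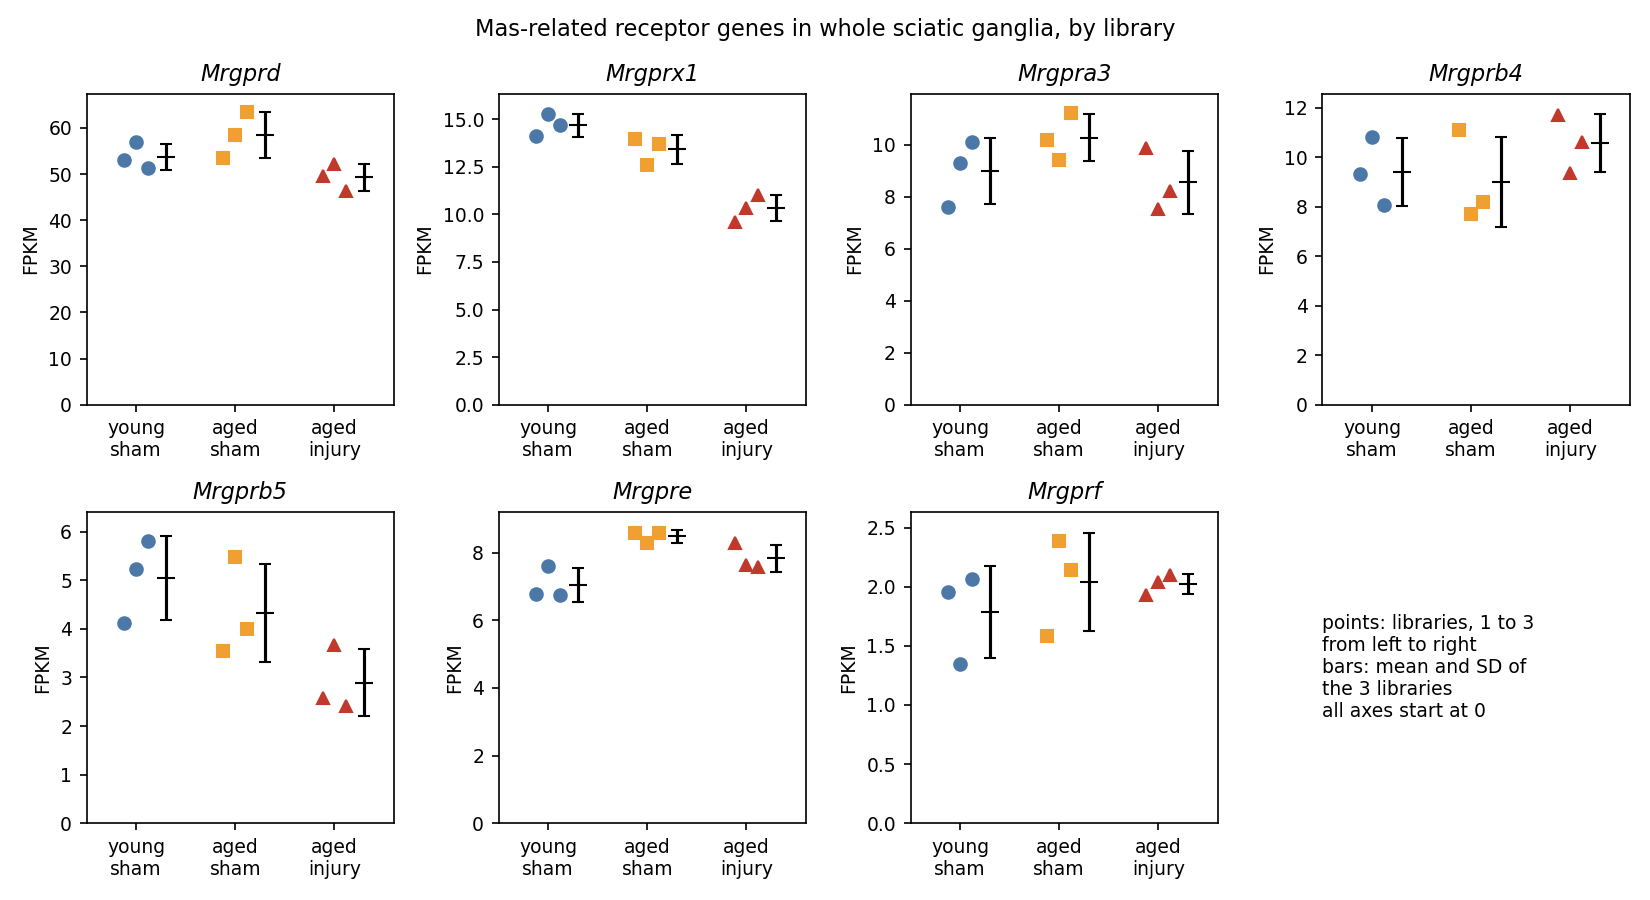
FPKM of the 7 genes in each of the 9 libraries, 1 panel per gene, with the group on the horizontal axis and the mean and SD of 3 libraries as a black bar. Mrgprx1 is at 9.62 to 11.04 FPKM in all 3 aged injury libraries and at 12.6 FPKM or more in all 6 sham libraries, whereas the groups of Mrgpra3, Mrgprb4 and Mrgprf overlap.

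The comparison of aged sham with young sham asks how the receptors differ with age. None of the 7 genes passed the test (limma on log2(FPKM + 0.1), Benjamini-Hochberg adjusted p under 0.05), while 4.02% of the 17601 genes did, 2.53% as higher and 1.49% as lower. The groups did not overlap for Mrgpre, which was higher, and Mrgprx1, which was lower, 2 of 7 genes against 29.2% of all genes, 17.7% as higher and 11.5% as lower. The median log2 change of the 7 genes was 0.12 beside 0.045 for all genes, with 4 positive and 3 negative values.

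Mrgpre had the largest log2 change with age. Its levels were 6.78, 7.62 and 6.74 FPKM in young sham libraries 1 to 3 and 8.60, 8.27 and 8.57 FPKM in aged sham libraries 1 to 3. All 3 aged libraries were above all 3 young ones, and the means were 7.05 ± 0.495 and 8.48 ± 0.180 FPKM (SD, n = 3). The log2 change was 0.27 (SE 0.0712, 95% confidence interval 0.11 to 0.43), with a limma adjusted p of 0.0645. It passed the threshold with the libraries set to equal levels of pan-neuronal genes (log2 change 0.33, adjusted p = 0.0243), with array weights (adjusted p = 0.0331) and without young sham 2 (adjusted p = 0.0343).

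Mrgprx1 was lower in the aged sham libraries, at 14.0, 12.6 and 13.7 FPKM against 14.1, 15.3 and 14.7 FPKM in the young. The groups stood next to each other without overlap, and the highest aged and lowest young value differed by little. The log2 change was -0.13 (SE 0.0715), with a limma adjusted p of 0.276. The other itch receptor, Mrgpra3, was at 7.61, 9.32 and 10.1 FPKM in young sham and 10.2, 9.41 and 11.2 FPKM in aged sham. These groups overlapped, and the log2 change was 0.19 (adjusted p = 0.370).

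Mrgprd, the receptor of the non-peptidergic nociceptors, was at 53.0, 56.9 and 51.4 FPKM in young sham and 53.5, 58.4 and 63.4 FPKM in aged sham. The groups overlapped, and the log2 change was 0.12 (limma adjusted p = 0.348). Mrgprb4 (log2 change -0.07, adjusted p = 0.802), Mrgprb5 (-0.23, adjusted p = 0.510) and Mrgprf (0.18, adjusted p = 0.565) also overlapped between the ages. The signs for Mrgprb4 and Mrgprf changed when 1 library was left out.

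Aged injury set against aged sham asks what a sciatic nerve injury changes within a day in aged mice. Of the 7 genes, 1 fell, Mrgprx1, and none rose, while 4.11% of all genes passed the test, 2.45% as higher and 1.65% as lower. The groups did not overlap for Mrgprx1 and Mrgprd, both lower, 2 of 7 genes against 25.4% of all genes, 11.7% as higher and 13.7% as lower. The median log2 change of the 7 genes was -0.24 beside -0.011 for all genes, with 5 negative and 2 positive values.

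Mrgprx1 was at 14.0, 12.6 and 13.7 FPKM in aged sham libraries 1 to 3 and at 9.62, 10.4 and 11.04 FPKM in aged injury libraries 1 to 3. Every injury library was below every sham library, and the means were 13.4 ± 0.747 and 10.3 ± 0.708 FPKM (SD, n = 3). The level was 1.30-fold lower after injury, a log2 change of -0.37 (SE 0.0715, 95% confidence interval -0.54 to -0.21, limma adjusted p = 0.0244). These values rest on 166 to 213 reads per aged sham library and 163 to 184 per injury library. Counting alone gives an SD of 7.83% at the fewest reads and 7.18% at the median. The SD between libraries of a group was 4.07% to 6.85%, below both. The libraries may therefore understate the spread, and the SE and adjusted p may be too low. The call was lost without any of 5 of the 6 aged libraries: the adjusted p was 0.0601 without aged sham 1, 0.0870 without aged sham 3, 0.0969 without aged injury 1, 0.0697 without aged injury 2 and 0.0538 without aged injury 3, and it was 0.0435 without aged sham 2, where the call was kept. Over all fits without 1 library the log2 change stayed between -0.42 and -0.32. The call was also lost with these 2 groups fitted alone (limma adjusted p = 0.0657) and with the replicate number as a block (limma adjusted p = 0.0714). With the libraries set to equal levels of pan-neuronal genes, the log2 change was -0.35 (adjusted p = 0.0376).

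Mrgprd measured 53.5, 58.4 and 63.4 FPKM in aged sham against 49.6, 52.1 and 46.2 FPKM after injury. The injury libraries were all below the sham libraries, with means of 58.4 ± 4.94 and 49.3 ± 2.93 FPKM (SD, n = 3). The log2 change of -0.24 (SE 0.0756, 95% confidence interval -0.41 to -0.07) did not pass the test, with a limma adjusted p of 0.114 and, over all alternatives, 0.0582 to 0.28. The gene had 1788 to 2544 reads per library, the most of the 7, so counting error (SD 2.36% at the fewest reads) was smaller than the spread between libraries of a group (5.26% to 8.45%).

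Mrgprb5 had the largest log2 change of the 7 after injury and the least depth behind it. Its levels were 3.54, 5.47 and 3.99 FPKM in aged sham and 2.58, 3.68 and 2.41 FPKM after injury. Aged injury 2 lay above aged sham 1, so the groups overlapped. The log2 change was -0.57 (SE 0.206, 95% confidence interval -1.03 to -0.11, limma adjusted p = 0.166). With 31 to 67 reads per library, counting alone gives an SD of up to 18.0%.

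Mrgprb4, the close relative of Mrgprb5, measured 11.1, 7.70 and 8.20 FPKM in aged sham against 11.7, 9.36 and 10.6 FPKM after injury. The groups overlapped through aged sham 1, the library that also had the high Atf3, and the log2 change was 0.24 (SE 0.155, limma adjusted p = 0.436). Without aged sham 1 the log2 change was 0.40 (adjusted p = 0.166). Mrgpra3, at 10.2, 9.41 and 11.2 FPKM in aged sham and 9.89, 7.55 and 8.23 FPKM after injury, had a log2 change of -0.27 (adjusted p = 0.298). Mrgpre (log2 change -0.11, adjusted p = 0.424) and Mrgprf (0.01, adjusted p = 0.987) overlapped between the groups, and the sign of Mrgprf turned negative with equal medians, quantile normalization or array weights.

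**Figure D2:**
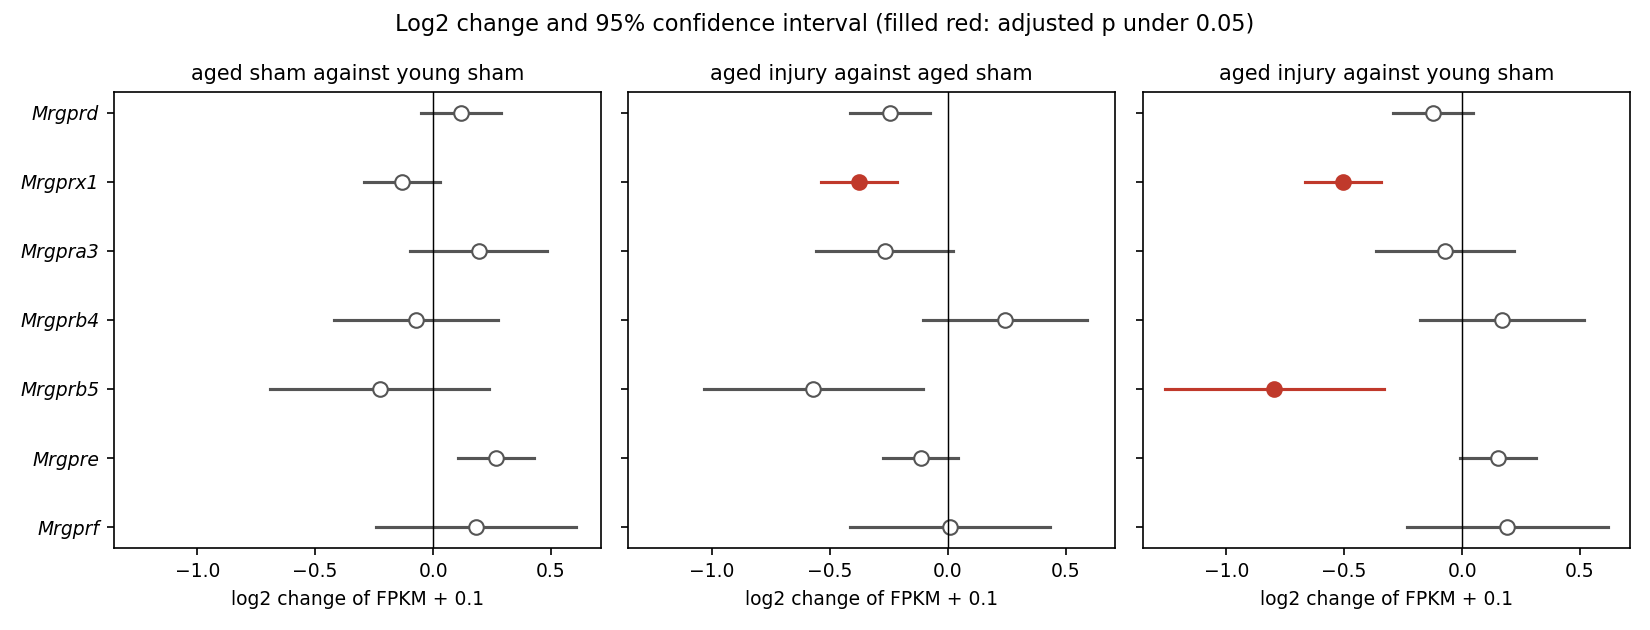
Log2 change of FPKM + 0.1 for each gene in the 3 comparisons (points), with the 95% confidence interval (lines) and filled red points for a limma adjusted p under 0.05. Mrgprx1 is called in both comparisons that involve injury, at -0.37 and -0.50, Mrgprb5 in aged injury against young sham, at -0.80, and none of the 7 with age.

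Aged injury against young sham joins both differences and shares its libraries with the comparisons above, so its values are not independent of them. Of the 7 genes 2 fell, Mrgprx1 and Mrgprb5, and none rose, while 13.1% of all genes passed the test, 8.20% as higher and 4.89% as lower. The same 2 genes had groups that did not overlap, against 35.4% of all genes, 19.9% as higher and 15.5% as lower. The median log2 change was -0.07 beside 0.021 for all genes.

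Mrgprx1 was 1.42-fold lower in aged injury than in young sham, at 10.3 ± 0.708 against 14.7 ± 0.598 FPKM (SD, n = 3). The log2 change was -0.50 (SE 0.0715, limma adjusted p = 0.00384), and this call held in all 20 alternatives, with an adjusted p of at most 0.0208. Here too the spread between libraries was below that of counting alone, so the SE and adjusted p may be too low. Mrgprb5 was 1.74-fold lower, at 2.58, 3.68 and 2.41 FPKM against 4.12, 5.22 and 5.82 FPKM. All injury libraries were below all young ones, and the log2 change was -0.80 (SE 0.206, 95% confidence interval -1.26 to -0.33, limma adjusted p = 0.0361). This call was lost without young sham 1 (adjusted p = 0.0557), young sham 2 (0.0841), young sham 3 (0.134), aged sham 3 (0.0563), aged injury 1 (0.110) or aged injury 3 (0.136). It was also lost with no filter on low values (0.0574), with equal levels of pan-neuronal genes (0.0602) and with these 2 groups alone (0.0571).

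The remaining 5 genes did not pass the test in this comparison. Mrgpre, at 8.28, 7.63 and 7.59 FPKM after injury, had a mean between its young and aged sham means, and its libraries overlapped both groups (log2 change against young sham 0.15, limma adjusted p = 0.192). With equal levels of pan-neuronal genes it passed, at a log2 change of 0.25 (adjusted p = 0.0382). Mrgprd had a log2 change of -0.12 (adjusted p = 0.311), Mrgpra3 -0.07 (adjusted p = 0.754), Mrgprb4 0.17 (adjusted p = 0.513) and Mrgprf 0.19 (adjusted p = 0.546).

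Ratios between the genes within a library do not depend on how libraries are scaled, and they are given as a description, chosen after their values were seen. Of all 21 ratios, 4 had groups without overlap in aged sham against young sham. The number was 5 in aged injury against aged sham and 11 in aged injury against young sham. The ratio of Mrgprx1 to Mrgpre was 2.01 to 2.18 in young sham, 1.52 to 1.63 in aged sham and 1.16 to 1.45 in aged injury, so no library of 1 group reached another group. The ratio of Mrgprx1 to Mrgprb4 was 1.41 to 1.82 in young sham and 1.26 to 1.67 in aged sham, which overlapped, and 0.820 to 1.11 after injury. At the annotated length of Mrgprb4 these ranges would be 1.78 to 2.30, 1.59 to 2.11 and 1.04 to 1.40, so whether Mrgprx1 was above Mrgprb4 in every injury library depends on that length, while the order of the groups does not. If Mrgprb4 reads were counted over its coding bases alone, these rescaled ratios are too high.

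The ratio of Mrgprb4 to Mrgprb5 was 1.39 to 2.27 in young sham, 1.41 to 3.14 in aged sham and 2.55 to 4.55 in aged injury. Aged sham 1, at 3.14, was above aged injury 2. The ratio of Mrgprd to Mrgpra3 showed no such shift, at 5.09 to 6.96, 5.25 to 6.21 and 5.01 to 6.90 in the 3 groups. Across the 9 libraries, Mrgprx1 and Mrgprb5 were the most alike of the 21 pairs (Pearson r 0.73) and Mrgprb4 and Mrgprb5 the least (r -0.67). These correlations describe 9 libraries in 3 groups and include the group differences.

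**Figure D3:**
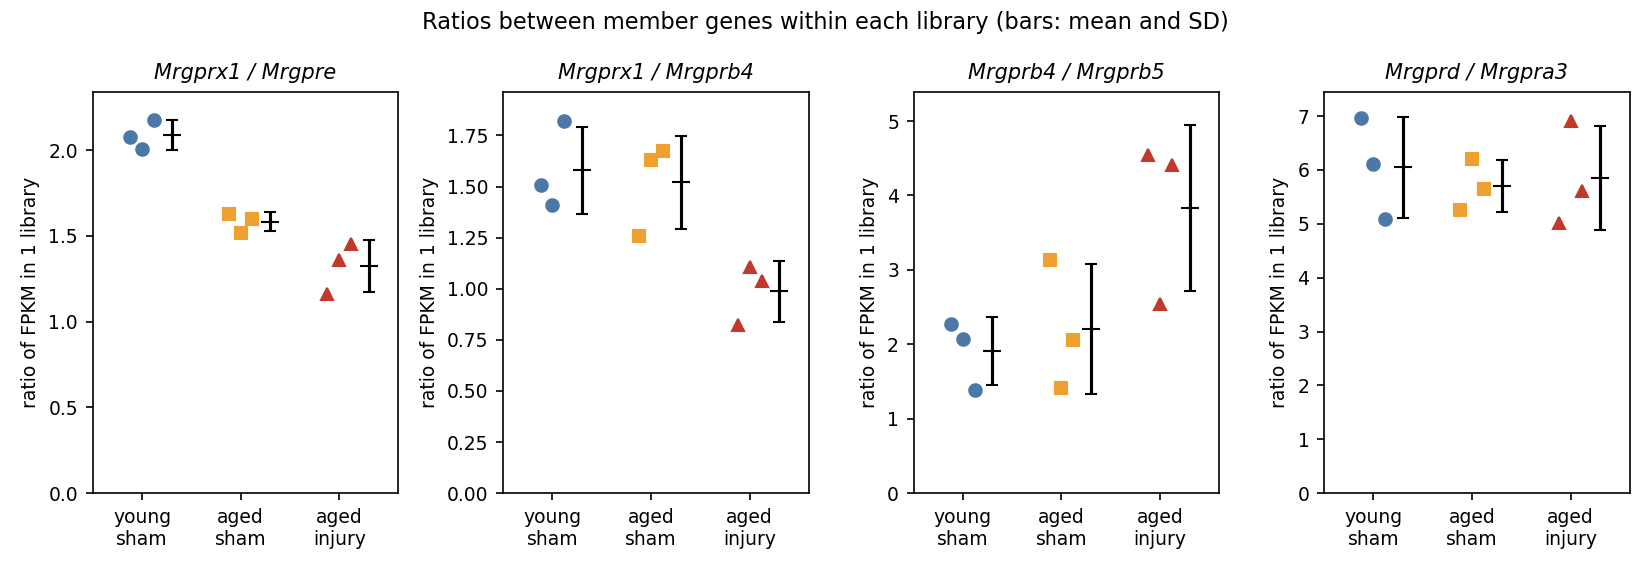
Ratio of the FPKM of 2 genes within each library, by group, with the mean and SD of 3 libraries as a black bar. The ratios shown were chosen after their values were seen. The Mrgprx1 to Mrgpre ratio steps down from 2.01 or more in young sham to 1.45 or less in aged injury without overlap of the groups, the Mrgprb4 to Mrgprb5 ratio is highest in 2 injury libraries, and the Mrgprd to Mrgpra3 ratio overlaps in all groups.

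The genes whose levels over the 9 libraries were most like those of each member were taken by Pearson correlation, as a description. Mrgprd was most like Abcc8 (r 0.977), a subunit of ATP-sensitive potassium channels, Amigo3 (0.972) and A3galt2 (0.969), an enzyme that makes a cell surface glycan. Mrgprx1 was most like Ptn (0.963), a secreted growth factor, Tesc (0.962) and Rabl6 (0.952). Mrgprb5 was most like Klhl5 (0.970), Mrgpre like Actr1a (0.980), a subunit of dynactin, Mrgprf like Yap1 (0.973), Mrgprb4 like Rraga (0.951) and Mrgpra3 like Prdx2 (0.901).

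Markers of the neurons that carry Mrgprd were measured beside it. All 14 were above 0 in every library, with a summed level of 534 to 581 FPKM in young sham, 554 to 577 in aged sham and 502 to 562 in aged injury. With age none of the 14 passed the test. Between aged injury and aged sham none passed either, 11 of 14 had a negative log2 change, and the median was -0.19 beside -0.011 for all genes. The groups did not overlap for 5 of the 14, all lower, against 13.7% of all genes. Gfra2, the receptor of neurturin on these neurons, had a log2 change of -0.23 (limma adjusted p = 0.0650) and Ptgir, a prostacyclin receptor, -0.37 (adjusted p = 0.0862).

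Against young sham, 2 of the 14 fell in aged injury, Gfra2 and Cd55, and 1 rose, Plxnc1, while 4.89% of all genes fell and 8.20% rose. Gfra2 fell from 46.2, 48.5 and 49.0 FPKM in young sham to 38.7, 41.2 and 36.6 FPKM, a log2 change of -0.30 (limma adjusted p = 0.0134). Without young sham 3 or aged injury 3 the call was lost (highest adjusted p 0.0543), as it was with equal levels of pan-neuronal genes. Cd55, a complement regulator, had a log2 change of -0.35 (adjusted p = 0.0261), and its call was lost without young sham 1 or 3 or aged injury 1 or 3. Plxnc1, a semaphorin receptor, had a log2 change of 0.27 (adjusted p = 0.0431), and its call was lost without any of young sham 1 or 3, aged sham 3 or the injury libraries. Mrgprd itself was among the genes that passed in none of the 3 comparisons.

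Of 14 listed markers of itch neurons 13 passed the filter. The list, with Nppb, Sst and Il4ra among its genes, is not limited to the neurons that carry Mrgpra3 and Mrgprx1. Its values can therefore not be assigned to those neurons. After injury in aged mice 3 of the 13 rose and none fell, while 2.45% of all genes rose and 1.65% fell. The median log2 change of the list was 0.27 (all genes -0.011). Gfra1, a receptor of GDNF, had levels of 38.9, 34.6 and 34.0 FPKM in the aged sham libraries against 71.2, 54.2 and 65.7 FPKM after injury. It rose 1.77-fold (log2 change 0.82, SE 0.102, limma adjusted p = 0.00540), and the call held in all 20 alternatives. Il4ra, the interleukin-4 receptor subunit, which immune cells also express, rose 1.55-fold (adjusted p = 0.0195), and its call was lost without aged sham 2 or 3 or any injury library. Htr1f, a serotonin receptor, rose 1.64-fold (adjusted p = 0.0326), and its call was lost without any of young sham 1 or 3, aged sham 2 or 3 or the injury libraries.

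With age, Il4ra alone of the 13 rose, 1.52-fold (limma adjusted p = 0.0352), while 2.53% of all genes rose. Every library but young sham 2 was needed for that call. Hrh1, a histamine receptor, had a log2 change of 0.69 with age (adjusted p = 0.0700) and -0.53 after injury (adjusted p = 0.167). Nppb, the natriuretic peptide of itch neurons, named here after its values were seen, was at 13.0 to 18.1 FPKM in young sham, 15.3 to 18.5 in aged sham and 15.4 to 20.4 in aged injury, which overlapped. Against young sham, 3 of the 13 rose in aged injury, Gfra1, Il4ra and Osmr, while 8.20% of all genes did. All 13 had a positive log2 change (median 0.43, all genes 0.021). The calls of Gfra1 and Il4ra held in all 20 alternatives, and that of Osmr, a subunit of the oncostatin M receptor, was lost without young sham 1 or 3 or aged injury 1 or 2. The summed macrophage markers were 60.2 to 68.0 FPKM in young sham, 103 to 162 in aged sham and 109 to 151 in aged injury, and the summed lymphocyte markers, given above, were higher in both aged groups than in young sham; the part of either in the values of Il4ra was not tested.

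**Figure D4:**
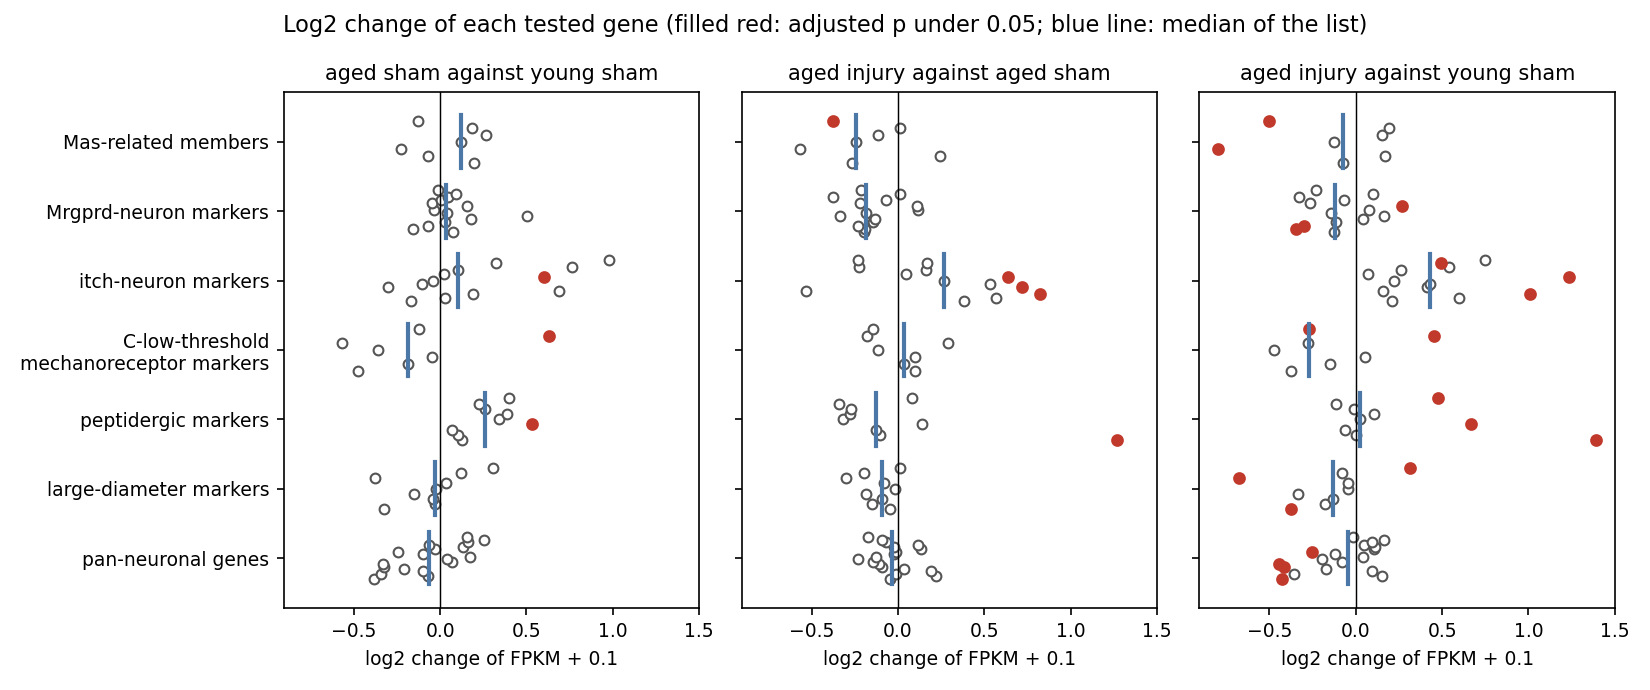
Log2 change of FPKM + 0.1 of each tested gene of 7 lists in the 3 comparisons, 1 point per gene, filled red for a limma adjusted p under 0.05, with the median of each list as a blue line. In aged injury against aged sham the median of the 7 Mas-related genes is -0.24 and that of the Mrgprd-neuron markers -0.19, while that of the itch-neuron markers is 0.27 and that of the pan-neuronal genes -0.03.

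A list of 7 markers of unmyelinated touch neurons was set beside Mrgprb4. It is not limited to the neurons that carry Mrgprb4, so its values cannot be assigned to those neurons. None of the 7 passed the test in aged injury against aged sham. With age 1 of them rose, Th, 1.55-fold (limma adjusted p = 0.0360), while 2.53% of all genes rose. The other 6 had a negative log2 change with age, and the median of the list was -0.18 beside 0.045 for all genes. The groups did not overlap for 3 of these 6, all lower, against 11.5% of all genes. Th encodes tyrosine hydroxylase. Its call with age was lost without any library but young sham 2. Tafa4, a secreted protein of the same neurons, had a log2 change of -0.57 with age (adjusted p = 0.0509). Against young sham, 1 of the 7 rose in aged injury, Th, and 1 fell, Zfp521, while 8.20% of all genes rose and 4.89% fell. The groups did not overlap for 5 of the 7 as lower and 1 as higher, against 15.5% and 19.9% of all genes. The call of Th was kept without young sham 2 only, and that of Zfp521 without aged sham 1 or aged injury 2 only. Of 9 markers of peptidergic nociceptors all had a positive log2 change with age (median 0.26, all genes 0.045). For 4 of them the groups did not overlap, against 17.7% of all genes as higher. The test was passed by 1, against 2.53% of all genes as higher. This was Gfra3, the artemin receptor (1.45-fold, limma adjusted p = 0.0212), whose call was lost without young sham 3 or aged sham 2 or 3. Between aged injury and aged sham, 6 of the 9 had a negative log2 change (median -0.13, all genes -0.011). The groups did not overlap for 3 of these 6, against 13.7% of all genes as lower. In that comparison 1 of the 9 rose, Adcyap1, which encodes the peptide PACAP (2.41-fold, limma adjusted p = 0.0056), while 2.45% of all genes rose. This call held in all 20 alternatives. Against young sham, 3 of the 9 rose in aged injury, Adcyap1, Gfra3 and Trpv1, and none fell, while 8.20% of all genes rose and 4.89% fell. The calls of Adcyap1 and Gfra3 held in all 20 alternatives, and that of Trpv1 was lost without aged injury 1 or 3. Of 9 markers of large-diameter neurons none passed the test with age or in aged injury against aged sham. Against young sham, 1 of them rose in aged injury, Spp1, and 2 fell, Calb1 and Pvalb. Of all genes 8.20% rose and 4.89% fell in that comparison. A negative log2 change was seen for 8 of the 9 (median -0.13, all genes 0.021), and how far these calls held in the alternatives was not tested.

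Of 18 pan-neuronal genes none passed with age or in aged injury against aged sham. In aged injury against young sham 4 fell, Elavl2, Nefl, Nefm and Snap25, while 4.89% of all genes did. Each of these 4 calls was lost without young sham 1, young sham 3 or aged injury 3, and 1 or more of them also without young sham 2, aged sham 2, aged injury 1 or aged injury 2. The summed pan-neuronal level was 8270 to 8836 FPKM in young sham, 7916 to 8728 in aged sham and 7497 to 8387 in aged injury.

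Transcription factors and growth factor receptors that set the identity of these neurons were 10 genes. With age 3 of them fell, while 1.49% of all genes fell. In aged injury against aged sham 2 fell and 1 rose, while 1.65% of all genes fell and 2.45% rose. Against young sham, 3 fell in aged injury and 2 rose, while 4.89% of all genes fell and 8.20% rose. The groups did not overlap for 3, 7 and 8 of the 10 in these comparisons, against 29.2%, 25.4% and 35.4% of all genes. Runx1, which is needed for most Mas-related genes to be switched on, was at 8.63 to 9.34 FPKM in young sham, 7.02 to 8.72 in aged sham and 7.18 to 9.16 in aged injury. It passed the test in no comparison (limma adjusted p 0.225, 0.743 and 0.423) and is named after its values were seen. Its partner Cbfb fell with age 1.28-fold (adjusted p = 0.0468), a call kept without young sham 2 only. In aged injury against aged sham, Prdm12, a regulator of nociceptor development, fell 1.29-fold (adjusted p = 0.0169; lost without aged sham 2 or 3 or aged injury 1 or 3). Isl1, a homeodomain factor of sensory neurons, fell 1.20-fold (adjusted p = 0.0391; kept without young sham 2 or 3 only) and Klf7 rose 1.30-fold (adjusted p = 0.0291; lost without young sham 1, aged sham 2 or 3 or aged injury 1 or 3). Isl1 was the one of these that also fell with age (1.26-fold, adjusted p = 0.0284; kept without young sham 2, aged sham 1 or aged injury 2 only), as did Pou4f1 (1.31-fold, adjusted p = 0.0169; lost without young sham 1 or 3 or aged sham 2 or 3).

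Of 20 genes of the signalling chain below the receptors, G protein subunits, phospholipase C, calcium stores, channels and arrestins, 2 fell with age and 1 rose after injury. Of all genes 1.49% fell with age and 2.45% rose after injury. Gnai1 fell 1.27-fold with age (limma adjusted p = 0.0401; kept without young sham 2 only) and Plcb4 1.30-fold (adjusted p = 0.0297; kept without young sham 2, aged sham 1 or aged injury 2 only). Itpr1, the receptor that releases calcium from internal stores, measured 3.83, 3.46 and 3.03 FPKM in aged sham against 7.36, 7.0 and 7.98 FPKM after injury. It rose 2.14-fold (log2 change 1.10, adjusted p = 0.00430), every injury library stood above every sham library, and the call held in all 20 alternatives. Against young sham, Itpr1 and Arrb1 rose in aged injury and Gnai1 fell, while 8.20% of all genes rose and 4.89% fell. The calls of Itpr1 and Gnai1 held in all 20 alternatives, and that of Arrb1 was lost without young sham 1 or 3 or aged injury 1 or 3.

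Of 10 precursors of ligands 6 were tested, and Npvf and Defb14 were listed at 0 in every library. With age 1 of the 6 rose, Camp, while 2.53% of all genes rose. In aged injury against aged sham 1 fell, again Camp, while 1.65% of all genes fell. Penk, whose product includes the peptide that activates Mrgprx1, was at 5.38 to 6.69 FPKM in young sham, 5.60 to 9.18 in aged sham and 4.87 to 5.64 in aged injury, and passed no test (limma adjusted p = 0.138 in aged injury against aged sham). Camp, a neutrophil peptide, rose with age 2.63-fold (adjusted p = 0.0284; lost without young sham 1 or 3, aged sham 2 or 3 or aged injury 3) and fell after injury 2.06-fold (adjusted p = 0.0451; kept without aged sham 1 only). The summed neutrophil and bone marrow markers, Camp among them, were 156 to 248 FPKM in young sham, 351 to 628 in aged sham and 195 to 327 in aged injury.

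Of 13 other genes of the family with a row, 5 passed the filter and none passed the test in any comparison. Mrgpra2b was the highest, at 5.25 to 7.16 FPKM, followed by Mrgpra2a at 0.908 to 2.10 FPKM. Their coding sequences are 99.8% identical, and 73.4% of the 100-base windows of the Mrgpra2a transcript are shared with Mrgpra2b. How reads were divided between them is therefore uncertain, and both are also among the neutrophil markers used here. Mrgpra6, Mrgprb3, Mrgprb8 and Mrgprg had at most 1 read in any library. Mrgprb2, the receptor of mast cells, was at 0 to 0.225 FPKM. The summed mast cell markers were 24.7 to 26.7 FPKM in young sham, 36.9 to 39.8 in aged sham and 28.5 to 36.6 in aged injury.

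Mrgprf was set beside 12 markers of vascular smooth muscle and pericytes, cells a whole ganglion also holds. Their summed level was 104 to 126 FPKM in young sham, 83.3 to 98.2 in aged sham and 97.1 to 121 in aged injury. With age 1 of the 12 fell, while 1.49% of all genes fell, and after injury 1 rose, while 2.45% rose. Both calls were of Rgs5, a pericyte gene, which fell with age 1.40-fold (limma adjusted p = 0.0331) and rose after injury 1.37-fold (limma adjusted p = 0.0271). Its call with age was lost without young sham 1 or 3, aged sham 2 or 3 or aged injury 1 or 3, and its call after injury without young sham 1, aged sham 2 or 3 or any injury library. Mrgprf was at 1.95, 1.34 and 2.06 FPKM in young sham, 1.58, 2.39 and 2.14 in aged sham and 1.93, 2.04 and 2.10 in aged injury. The 3 groups overlapped, and the 37 to 69 reads per library give a counting SD of up to 16.4%.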

How the data were processed

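Reads from whole sciatic ganglia (9 libraries, 3 per group) were processed by the authors. Among the tools in the submitters' processing notes are HTSeq 0.6.0, TopHat2 2.0.12 and Bowtie2 2.2.3, and the build is mm10; no role is given for each. The authors deposited FPKM; for annotation release, strand and scaling, the sources used here say nothing. Symbols came from GENCODE (95.7% of 17601 tested identifiers).

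The test was limma 3.58.1 (R 4.3.3) on the log2 of FPKM + 0.1, a scale that understates changes of low genes, for genes averaging 0.2 FPKM or more. One fit held all 9 libraries, tests were two-sided, and p-values were Benjamini-Hochberg adjusted over all genes tested. Every member passed the filter, so no separate test of low members was made. Scripts were tested on simulated data. Whole reads were recovered from FPKM steps for 99.9% of tested genes (within 0.001 of a whole read), up to a common factor per gene.

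Members and lists were chosen with earlier results of these data known. Named genes were the members, other family genes, up to 4 genes per list with the smallest p in each comparison, and the 3 genes most like each member. Alternatives were pseudocounts, filters, scalings, 2 groups alone, a replicate block, array weights, voom on recovered reads and leaving out each library.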

Additional observations from a re-analysis of the deposited data

How the results depend on the processing

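Each member's change was recomputed in 11 other settings and without each of the 9 libraries. The number of members called with age was 0, and 1 (Mrgpre) with equal pan-neuronal means and with array weights, and 0 to 1 over fits that left out a library. In aged injury against aged sham it was 1 (Mrgprx1), 0 with the 2 groups alone, and 0 to 1 over fits that left out a library. In aged injury against young sham it was 2, 1 with no filter and with the 2 groups alone, where Mrgprx1 was kept, and 1 to 2 over fits that left out a library; with equal pan-neuronal means it was again 2, but these were Mrgprx1 and Mrgpre. With the replicate number as a block it was 0 for aged injury against aged sham, and the block changed no other call of a member. The numbers were not taken to pair the libraries, since the labels do not state a pairing. Same-numbered aged sham and aged injury libraries correlated at 0.24, 0.27 and 0.06 in their deviations from the group means. Each of these was above those of differently numbered libraries of these 2 groups, at -0.26 to 0.04. Same-numbered young and aged libraries correlated at -0.07 to -0.02. Pairing of the aged libraries was not tested further.

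Signs that changed all belonged to members that did not pass the test. With age, the log2 change of Mrgprb4 was 0.033 without young sham 2 and 0.029 without aged sham 2 (range without a library -0.231 to 0.033), and that of Mrgprf -7.8e-05 without young sham 2 (range -7.8e-05 to 0.346). After injury, Mrgprf was at -0.018 with equal medians and with quantile normalization, -0.04 with array weights, -0.153 without aged sham 1 and -0.015 without aged injury 3 (range -0.153 to 0.131). In aged injury against young sham, Mrgpra3 was at 0.02 with equal pan-neuronal means, 0.033 with array weights, 0.014 without young sham 3 and 0.012 without aged injury 2 (range -0.188 to 0.014). Among genes of the other lists, fitting 2 groups alone and the replicate block each ended the calls of Camp, Cbfb, Gnai1, Il4ra, Isl1, Plcb4, Rgs5 and Th with age, of Camp, Htr1f, Isl1, Klf7, Prdm12 and Rgs5 after injury, and of Plxnc1, Th and Zfp521 in aged injury against young sham. Setting equal medians or equal pan-neuronal means ended the calls of Cbfb and Gnai1 with age and of Isl1 and Klf7 after injury. In aged injury against young sham, 1 of these settings ended those of Arrb1, Cd55, Gfra2, Klf7, Plxnc1, Prdm12, Ret, Elavl2, Nefm, Snap25, Th and Zfp521. Applying no filter ended the calls of Cbfb, Gnai1, Il4ra and Th with age, of Camp and Htr1f after injury, and of Nefl, Nefm, Plxnc1, Snap25, Th and Zfp521 in aged injury against young sham. Quantile normalization ended those of Nefl, Nefm and Plxnc1 in the last comparison. There the block also ended Cd55, Prdm12 and Snap25, and fitting 2 groups alone ended Osmr. Fitting 2 groups alone ended Gfra3 with age, and a pseudocount of 1 ended Cbfb. The number of all genes called was 707 with age (31 to 2020 over the other settings, 23 to 1536 without a library), 723 in aged injury against aged sham (273 to 931, 151 to 740) and 2304 in aged injury against young sham (1561 to 3755, 869 to 2365). The cause of these differences was not tested. Depth limits Mrgprb5 and Mrgprf, with 31 to 67 and 37 to 69 reads per library.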
